A study of Mus musculus with 15 samples.

Results

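Expression of 10 genes of the NRF2 and glutathione antioxidant system was followed through the RNA-seq of HY19636 cells and tumors: Nfe2l2, Gclc, Gclm, Gss, Gsr, Txnrd1, Srxn1, G6pdx, Hmox1 and Nqo1. They were chosen by name, with earlier results of these data known, as 10 of the 55291 genes in each of the 3 comparison tables. HY19636 is 1 murine pancreatic ductal adenocarcinoma (PDAC) line, labelled as p53 mutant, from a C57BL/6 model with p53 L/+ and Ptf1a-Cre, so that the cancer cells of all 5 groups share these alleles and the Cre acts in the pancreatic lineage. In culture, in DMEM with 10% FCS, 3 control samples were set against 3 samples treated with DON at 25 µM for 24 h and 3 samples kept in medium without Gln for 24 h. DON is a Gln antagonist that blocks Gln-using enzymes. In vivo, HY19636 cells were placed in the pancreas of female B6J mice of 8 to 10 weeks, and 3 randomly picked tumors from animals on DRP-104 (sirpiglenastat), which releases DON, were set against 3 from animals on vehicle (Tween-80, ethanol and saline). The drug was injected i.p. at 3 mg/kg each day, in 2 cycles with 5 days of dosing and 2 of rest, and collection was at day 21. The control columns of the culture tables carry headings that match the titles of the vehicle tumors, and they were taken as control cells because the tables are named for these. The labels do not say whether the culture samples came from separate cultures, so p-values for cells measure the spread between these samples, which may be technical.

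NRF2, the protein of Nfe2l2, is a transcription factor that KEAP1 holds in the cytoplasm and marks for degradation. Under oxidative or electrophilic stress it escapes, pairs with a small MAF protein and binds antioxidant response elements in the promoters of its targets, among them most of the genes followed here. Glutathione is built from Glu, Cys and Gly, and Glu is drawn from Gln in many cancer cells. The comparisons therefore ask how this set of genes was expressed when Gln use was blocked, when Gln was withdrawn and when tumors were given the prodrug.

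Reads per library were 25.2 to 48.2 M in cells and 16.3 to 20.7 M in tumors, and the values given are normalized counts, that is, reads divided by 1 size factor per library within a table. All 8 epithelial PDAC markers had reads in every group. Their summed level was 13039 to 15493 CPM (reads per M reads of the library) in control cells, 4186 to 4390.5 after DON and 5509 to 6113 without Gln, so the line's own markers differed between culture groups as well. In cells the 4 islet markers had no read and 4 or 5 of 7 fibroblast markers were at 0, including Col1a2, Dcn and Lum in all 3 culture groups. Tumors also held stromal RNA. The summed fibroblast markers (7 of 7 with reads) were 1018 to 1630.3 CPM in DRP-104 tumors and 2061 to 4315 in vehicle tumors, and the 4 endothelial markers 55.0 to 74.2 and 87.8 to 104.4. Neither range overlapped. DRP-104 tumor 3 stood apart in the 6 T cell markers, at 61.7 CPM against at most 3.63 in the other tumors.

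RefSeq promoter windows (GRCm38.p6, 250 bases before to 50 after the annotated start) were at hand for 7 of the 10 genes, in 9 windows, with no entry for Hmox1, Gclc or Gsr. They were searched on both strands for the core of the antioxidant response element, spelled TGACNNNGC or TGAGNNNGC, and for the core of the C/EBP-ATF response element, spelled TGATGNAA. An antioxidant core was found in 5 of the 9 windows, those of Nfe2l2, Gclm, Srxn1 and G6pdx and 1 of 3 for Txnrd1, and 27.8% of all 32851 windows held 1. TGATGNAA was in 0 of the 9 and in 3.97% of all windows. The Gss and Nqo1 windows held no match, which says only that these letters are not in these bases. The 5 windows with a match are printed 5′ to 3′ on the strand of the gene because they are the stretches that could carry an antioxidant response element, with matches in capitals. No match overlapped another.
Nfe2l2, chr2:75704614-75704913, minus strand: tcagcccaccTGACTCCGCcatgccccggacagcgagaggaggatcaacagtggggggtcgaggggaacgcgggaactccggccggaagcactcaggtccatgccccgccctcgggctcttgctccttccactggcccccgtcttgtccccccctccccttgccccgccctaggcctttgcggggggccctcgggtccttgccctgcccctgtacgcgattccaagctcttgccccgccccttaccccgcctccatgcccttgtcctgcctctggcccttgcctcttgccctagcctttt
Gclm, chr3:122245307-122245606, plus strand: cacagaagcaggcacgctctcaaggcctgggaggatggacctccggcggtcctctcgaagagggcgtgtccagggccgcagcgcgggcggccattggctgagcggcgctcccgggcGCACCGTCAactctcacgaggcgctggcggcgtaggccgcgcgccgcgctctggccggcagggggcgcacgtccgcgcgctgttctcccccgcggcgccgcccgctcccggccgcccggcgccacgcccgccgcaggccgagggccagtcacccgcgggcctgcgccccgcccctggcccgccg
Txnrd1, chr10:82858956-82859255, plus strand: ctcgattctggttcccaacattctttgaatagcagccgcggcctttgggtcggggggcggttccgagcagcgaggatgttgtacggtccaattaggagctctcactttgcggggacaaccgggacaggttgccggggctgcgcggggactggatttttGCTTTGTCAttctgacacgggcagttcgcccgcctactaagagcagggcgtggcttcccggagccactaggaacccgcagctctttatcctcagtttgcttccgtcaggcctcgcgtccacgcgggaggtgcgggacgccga
Srxn1, chr2:152105274-152105573, plus strand: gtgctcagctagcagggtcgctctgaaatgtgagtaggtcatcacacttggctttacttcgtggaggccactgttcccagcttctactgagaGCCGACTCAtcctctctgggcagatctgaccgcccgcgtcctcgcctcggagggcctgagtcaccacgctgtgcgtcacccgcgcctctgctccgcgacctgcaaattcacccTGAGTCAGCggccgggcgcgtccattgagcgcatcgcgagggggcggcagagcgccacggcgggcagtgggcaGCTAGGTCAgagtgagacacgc
G6pdx, chrX:74428831-74429130, minus strand: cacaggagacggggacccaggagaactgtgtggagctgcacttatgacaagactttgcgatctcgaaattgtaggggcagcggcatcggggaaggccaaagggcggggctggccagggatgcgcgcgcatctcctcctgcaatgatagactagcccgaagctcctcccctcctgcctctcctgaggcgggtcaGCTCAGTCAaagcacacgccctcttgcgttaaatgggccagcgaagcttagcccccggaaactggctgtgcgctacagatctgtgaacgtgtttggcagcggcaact
Srxn1 had the most matches, beginning at positions -158, -45 and 29 from the start site, and each of the other 4 had 1, at -240 for Nfe2l2, -134 for Gclm, -92 for Txnrd1 and -57 for G6pdx. The letters at -45 in Srxn1, TGAGTCAGC, read as a core on the plus strand. A match is a description of the sequence and not evidence of binding.

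Per gene length, the members covered a wide range of levels in control cells. Gsr, which regenerates reduced glutathione, was the highest at 219 ± 5.25 RPKM (reads per kilobase of gene length and per M reads of the library, mean ± SD, n = 3), above 98.4% of the 16789 genes with reads. Nfe2l2 itself followed at 94.9 ± 4.74 RPKM and Txnrd1 at 75.6 ± 2.39, and these 3 did not overlap. G6pdx stood at 49.6 ± 5.14. Gclc (30.9 ± 3.46), Gss (29.6 ± 2.25) and Gclm (28.6 ± 2.88) overlapped one another and so have no order among them. Below them came Hmox1 at 18.5 ± 1.35 and Srxn1 at 12.2 ± 0.475. Nqo1, the NAD(P)H quinone reductase that is a standard reporter of NRF2 activity, was nearly silent in this line at 0.359 ± 0.157 RPKM, above only 33.1% of genes with reads, and it remained the lowest of the 10 in every group.

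**Figure D1:**
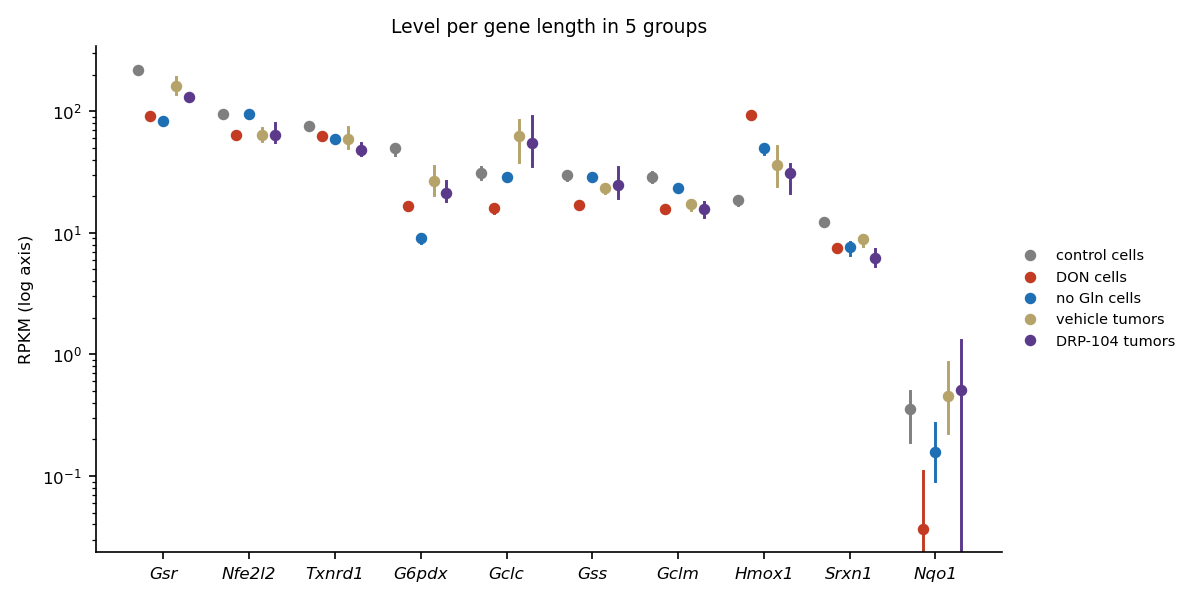
Levels of the 10 genes in RPKM (log axis), ordered by control cells, with points for the mean of 3 libraries in each of 5 groups and lines from the lowest to the highest library. Hmox1 moved from the eighth place in control cells (18.5) to the level of Gsr after DON (93.3 and 91.4, with overlapping ranges), Nfe2l2 lay above Gsr without Gln, and Nqo1 lay far below the others. A line that meets the lower edge reaches a library at 0.

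DON lowered 9 of the 10 genes and raised 1, Hmox1, while Gln withdrawal lowered 5, raised Hmox1 and left 4 without a call. These counts stand against broad shifts. With limma on log2(normalized count + 1) and a Benjamini-Hochberg adjusted p under 0.05, 68.1% of all genes tested were called after DON (34.7% lower and 33.3% higher) and 69.4% without Gln (34.9% lower and 34.5% higher). The groups did not overlap for all 10 members after DON and for 8 without Gln, against 71.9% and 73.6% of all genes tested. A count of called members near that share is therefore no result about the members, and 6 of 10 without Gln is near it. The median log2 fold change over the 10 was -0.98 after DON and -0.43 without Gln, where the medians over all genes tested were 0.02 and 0.01. Both comparisons use the same 3 control libraries, scaled separately in each table, so their fold changes are not independent. Nqo1 is counted among the 10 tested but passed the filter (a mean of at least 10) only through its control values. With 3 libraries against 3, the exact two-sided permutation test of a single gene cannot go below 0.1, the value it gave for all 10 genes after DON.

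**Figure D2:**
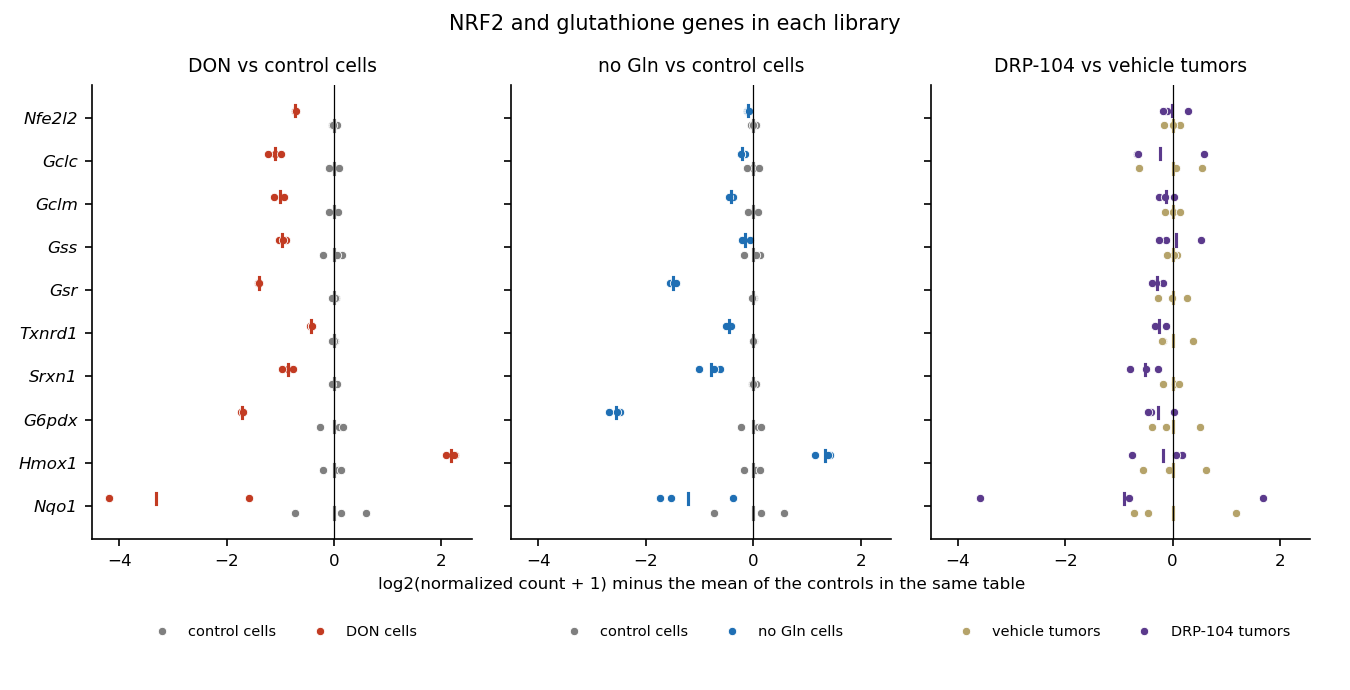
Each library's log2(normalized count + 1) minus the mean of the controls of the same table, for the 10 genes in DON cells, Gln-free cells and DRP-104 tumors beside their controls, with 1 point per library and a tick at each group mean. All 3 DON libraries lie clear of the controls for every gene. In tumors the groups overlap for 9 genes, Srxn1 being the exception.

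Nfe2l2 (chr2:75675513-75704641, minus strand, GRCm38) was the first point at which the 2 culture treatments parted. Its normalized count was 4720.0, 4684 and 4735 after DON against 8111, 7548 and 7656 in controls. All 3 DON libraries were lower, and the spread among them was small. The log2 fold change was -0.72 (SE 0.08, limma adjusted p = 2.77e-06). Without Gln the values were 6780.3, 6900.0 and 6964 against 7644, 7129.7 and 7384 in controls. The groups did not overlap, yet the log2 fold change of -0.10 (95% interval -0.27 to 0.06) did not pass the test (limma adjusted p = 0.246). Set side by side on a joint scale, DON cells had a lower Nfe2l2 level than Gln-free cells, with a log2 difference of -0.59 (SE 0.07, limma adjusted p = 1.52e-06).

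Among the partners and regulators of NRF2, more genes were called higher than lower. The list holds genes that act with NRF2 and genes that act against it, so these counts give no direction for NRF2 activity. Of 14 listed, 12 were tested after DON, and 8 were higher and 2 lower. Without Gln 13 were tested, and 9 were higher and 3 lower. Sqstm1, the autophagy receptor p62 that sequesters KEAP1, rose from 21779.8 ± 2726 to 74547 ± 3929.8 (SD, n = 3) normalized counts after DON (log2 1.78, limma adjusted p = 5.71e-09) and likewise without Gln (log2 1.79, adjusted p = 8.31e-09). Keap1, the adaptor that targets NRF2 for degradation, fell after both, with log2 fold changes of -1.24 (limma adjusted p = 6.67e-08) and -0.67 (2.50e-05). The small MAF partners Mafg (log2 1.16 and 0.39), Mafk (0.81 and 1.68) and Maff (0.79 and 1.04) rose after DON and without Gln. Cul3 (0.71 and 0.89) and Gsk3b (0.35 and 0.40) also rose after both. Btrc rose after DON (0.85) and fell without Gln (-0.41). Nfe2l3, a related cap'n'collar factor, fell after both (log2 -2.57 and -2.99). Bach2, a repressor that competes for the same elements, had 6.66 ± 3.78 normalized counts in controls and 46.6 ± 12.0 without Gln (log2 2.76, limma adjusted p = 0.000306). It entered the test only through its Gln-free values, so it had to differ and its place among the 9 supports nothing. It was too low for the test in the DON table.

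The 3 enzymes of glutathione synthesis all fell after DON, whereas without Gln only Gclm passed the test. Gclc and Gclm encode the catalytic and the modifier subunit of glutamate-cysteine ligase, the rate-limiting step, and Gss encodes glutathione synthetase, which adds Gly. Gclc (chr9:77754535-77794485, plus strand) had normalized counts of 1638, 1486 and 1761 after DON against 3507, 3253 and 3717 in controls (log2 -1.10, SE 0.10, limma adjusted p = 2.17e-07). Without Gln it had 2990.2, 2830.0 and 2832 against 3305, 3073 and 3584. Those groups did not overlap either, but the log2 fold change of -0.20 (95% interval -0.39 to -0.01) missed the threshold after adjustment (limma adjusted p = 0.0527), and leaving out 1 control library brought it past (0.0281), as did the filter of 50 (0.0491) and quantile normalization (0.0182).

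Gclm (chr3:122245557-122269984, plus strand) fell after both treatments. It had 2359, 2385 and 2095 after DON against 4620.3, 4297 and 4809.65 in controls, a log2 fold change of -1.01 (SE 0.09, limma adjusted p = 3.03e-07). Without Gln it had 3289, 3356 and 3188 against 4354, 4059 and 4639, a log2 fold change of -0.41 (SE 0.08, limma adjusted p = 0.000714). Every treated library lay below every control. The catalytic to modifier ratio per gene length was 1.08 ± 0.0120 in controls, 1.02 ± 0.157 after DON and 1.24 ± 0.0475 without Gln. In this ratio DON overlapped the controls and the Gln-free libraries were all higher.

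Gss (chr2:155563181-155592810, minus strand) had 1706, 1557 and 1655 after DON against 3516, 3321 and 2772 in controls (log2 -0.96, SE 0.10, limma adjusted p = 1.68e-06). Without Gln it had 2649.7, 2615 and 2911 against 3314, 3137 and 2674, and the groups overlapped (log2 -0.15, 95% interval -0.36 to 0.06, adjusted p = 0.175). That last value turned on 1 control library, without which the log2 fold change was -0.24 (limma adjusted p = 0.00765). Exons of Gss share 395 bases with Acss2 on the opposite strand, which had a mean of 789.9 normalized counts in controls, and the use of strand in counting is not given in the sources used here, so reads of the pair cannot be told apart there. Tested directly, Gclc, Gclm and Gss were each lower after DON than without Gln, with log2 differences of -0.87, -0.57 and -0.77 and limma adjusted p-values of 3.32e-07, 1.46e-05 and 2.51e-06.

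Genes that supply or break down glutathione went in both directions. Of 12 listed, 9 were tested in each culture comparison, and 4 were higher and 3 lower in each. Cth, the last enzyme of transsulfuration to Cys, rose after DON (log2 3.05, limma adjusted p = 3.20e-11) and without Gln (1.63, 7.67e-08), and Cbs, the enzyme before it, fell in both (log2 -1.42 and -1.52). Chac1, which degrades glutathione, rose from 637 ± 112 to 3681 ± 186 normalized counts after DON (log2 2.54) and from 605 ± 101 to 1352 ± 80.9 without Gln (log2 1.17). Slc7a11, the cystine transporter, rose after DON (log2 0.68), and its value without Gln was 0.31 with no call. Oplah, which recovers Glu from oxoproline, fell in both (log2 -0.70 and -1.20). Ggt7, a member of the gamma-glutamyltransferase family, rose without Gln (log2 2.06).

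Gsr and Txnrd1, which keep glutathione and cytosolic thioredoxin reduced, fell in both cultures. Gsr (chr8:33652523-33698163, plus strand), glutathione reductase, had 7378, 7227 and 7349.8 after DON against 19790.2, 19478.5 and 18765 in controls. It had 6262, 6591 and 6790.4 without Gln against 18651, 18399 and 18098. Replicates were close in every group, and no group overlapped its controls. The log2 fold changes were -1.40 (SE 0.08, limma adjusted p = 3.23e-09) after DON and -1.49 (SE 0.08, adjusted p = 4.60e-09) without Gln. Their direct difference of 0.12 (95% interval -0.02 to 0.26) did not pass the test (limma adjusted p = 0.128), although it did with quantile normalization (0.22, 0.00638).

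Txnrd1 (chr10:82859206-82897724, plus strand), cytosolic thioredoxin reductase, was the least affected of the called genes after DON. It had 6261, 6443 and 6426 after DON against 8706, 8569.7 and 8367 (log2 -0.42, SE 0.08, limma adjusted p = 0.000351), and 5932, 6098 and 5699 without Gln against 8205, 8095 and 8069 (log2 -0.46, SE 0.08, adjusted p = 0.000129). The direct difference was 0.07 (95% interval -0.07 to 0.21, limma adjusted p = 0.375), and 0.19 with quantile normalization (adjusted p = 0.0144). The ratio of Gsr to Txnrd1 per gene length went from 2.89 ± 0.0224 in controls to 1.47 ± 0.0366 after DON and 1.42 ± 0.0923 without Gln. Srxn1 (chr2:152105516-152111376, plus strand), sulfiredoxin, which repairs overoxidized peroxiredoxins, had 626, 582 and 674 after DON against 1123, 1181 and 1112 in controls (log2 -0.86, SE 0.11, limma adjusted p = 7.01e-06). Without Gln it had 699.8, 538 and 653 against 1058, 1116 and 1072 (log2 -0.79, SE 0.12, adjusted p = 4.95e-05). Here the 2 treatments gave nearly the same value, and the direct difference was -0.04 (95% interval -0.28 to 0.19).

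Listed genes of the thioredoxin and glutathione systems around these reductases fell more often than they rose. Of 11 thioredoxin and peroxiredoxin genes, 7 were lower and 2 higher after DON, and 8 were lower and 2 higher without Gln. Prdx4 and Prdx2, peroxiredoxins of the endoplasmic reticulum and the cytosol, fell after DON (log2 -1.19 and -1.17) and without Gln (-1.73 and -1.16). Txn2, mitochondrial thioredoxin, rose in both (0.80 and 0.98). Prdx3, the mitochondrial peroxiredoxin, rose after DON (0.25) and fell without Gln (-0.65). Txnrd2, mitochondrial thioredoxin reductase, had a value of 0.04 after DON with no call and fell without Gln (-0.72). Txnip, which binds and inhibits thioredoxin, went opposite ways. It fell after DON (log2 -0.69) and rose without Gln from 2011 ± 235 to 10397 ± 837 normalized counts (log2 2.37, limma adjusted p = 1.03e-09), and the direct difference was -3.03. Of the 10 glutathione peroxidases and glutaredoxins, 8 were tested, with 1 higher and 4 lower after DON and 2 higher and 5 lower without Gln. The number called after DON is near the 68.1% of all genes and is no result about this list. Glrx, cytosolic glutaredoxin, fell in both (-2.67 and -1.68) and Glrx2, the mitochondrial form, rose in both (0.90 and 0.68). Gpx8, a peroxidase of the endoplasmic reticulum, fell after DON (-1.36) and rose without Gln (1.07). Gpx3, the secreted peroxidase, had 32.3 ± 3.05 normalized counts in controls and 5.82 ± 1.23 without Gln (log2 -2.30), and it entered that test only through its controls, with the same limit as Bach2.

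G6pdx (chrX:74409483-74429194, minus strand), glucose-6-phosphate dehydrogenase, makes NADPH at the entry of the pentose phosphate pathway, and it had the largest fall among the members called without Gln. Its normalized counts were 643, 741 and 714 without Gln against 4365, 4579 and 3509 in controls, a log2 fold change of -2.56 (SE 0.11, limma adjusted p = 1.21e-09). After DON they were 1338, 1305 and 1339 against 4632, 4848 and 3639 (log2 -1.71, SE 0.11, adjusted p = 7.86e-09). The control libraries were spread more widely than the treated ones, but none came near them. In the direct test G6pdx was higher after DON than without Gln (log2 0.88, SE 0.10, limma adjusted p = 2.13e-06), the reverse of the order for the synthesis enzymes. Its near-identical copy G6pd2 had no read in any library. G6pdx exons share 418 bases with Ikbkg on the opposite strand (mean of 2835 normalized counts in controls), with the same limit as for Gss.

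Other genes listed for NADPH supply fell with it, 7 of 9 after DON and 8 of 9 without Gln. None was called higher, and the list also holds pentose phosphate enzymes that do not make NADPH themselves. The list's median log2 fold change was -1.33 and -1.74, where all genes tested had 0.02 and 0.01. Idh1, cytosolic isocitrate dehydrogenase, fell after DON (log2 -2.33, limma adjusted p = 5.56e-10) and without Gln (log2 -3.62, adjusted p = 2.24e-10). H6pd, the counterpart of G6pdx in the endoplasmic reticulum, fell after DON (-2.06) and without Gln (-1.95). Pgd, the second NADPH-making step of the pentose phosphate pathway, also fell after both (-1.57 and -2.40). Directly compared, 7 of the 9 were higher after DON than without Gln and 1, Me1, was lower (log2 -0.62). Of 5 superoxide dismutase and catalase genes, 4 were tested. Cat, catalase, fell in both (-0.86 and -1.81), Sod2, the mitochondrial dismutase, rose in both (0.35 and 0.46), Sod1, the cytosolic one, fell without Gln (-0.85), and Ccs, the copper chaperone of Sod1, rose after DON (0.64).

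Hmox1 (chr8:75093591-75100596, plus strand), heme oxygenase, which degrades heme to biliverdin, iron and carbon monoxide, was the only member that rose, and it rose in both cultures. It had 4669, 4190.5 and 4611 after DON against 1034, 1075 and 857 in controls. Without Gln it had 2523, 2461 and 2083 against 974, 1016 and 826. Every treated library was above every control, and every DON library above every Gln-free library on the joint scale. The log2 fold changes were 2.19 (SE 0.10, limma adjusted p = 4.88e-10) and 1.33 (SE 0.11, adjusted p = 3.21e-07), and the direct difference was 0.89 (SE 0.10, adjusted p = 1.43e-06). None of the heme and iron genes around it was called higher. Of 6 tested, 4 were lower after DON (66.7%, about the 68.1% called among all genes) and 6 without Gln. Blvrb, a biliverdin reductase, fell in both (-1.39 and -2.12), as did Slc40a1, the iron exporter ferroportin (-2.30 and -1.77).

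Nqo1 (chr8:107388225-107403206, minus strand) was read from few reads in any library. It had 0, 0 and 5.04 normalized counts after DON against 26.4, 9.99 and 18.8 in controls, and 4.18, 12.4 and 5 without Gln against 24.9, 9.44 and 18.2. The 2 DON libraries at 0 allow up to 3 reads each by counting error alone. Its log2 fold change of -3.32 (SE 0.86, limma adjusted p = 0.00358) after DON is of a gene that entered the test only because its controls were high, and supports nothing further. Without Gln the groups overlapped (log2 -1.21, 95% interval -2.47 to 0.05, limma adjusted p = 0.0794). Nqo1 was too low for the direct test. The list of other known NRF2 targets was better read. Of 10, 9 were tested, all 9 were lower after DON and 8 were lower without Gln, with median log2 fold changes of -1.86 and -1.67. The largest falls were in Cbr3, a carbonyl reductase (-4.22 and -4.45), and Aldh3a1, an aldehyde dehydrogenase (-3.41 and -3.81).

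**Figure D3:**
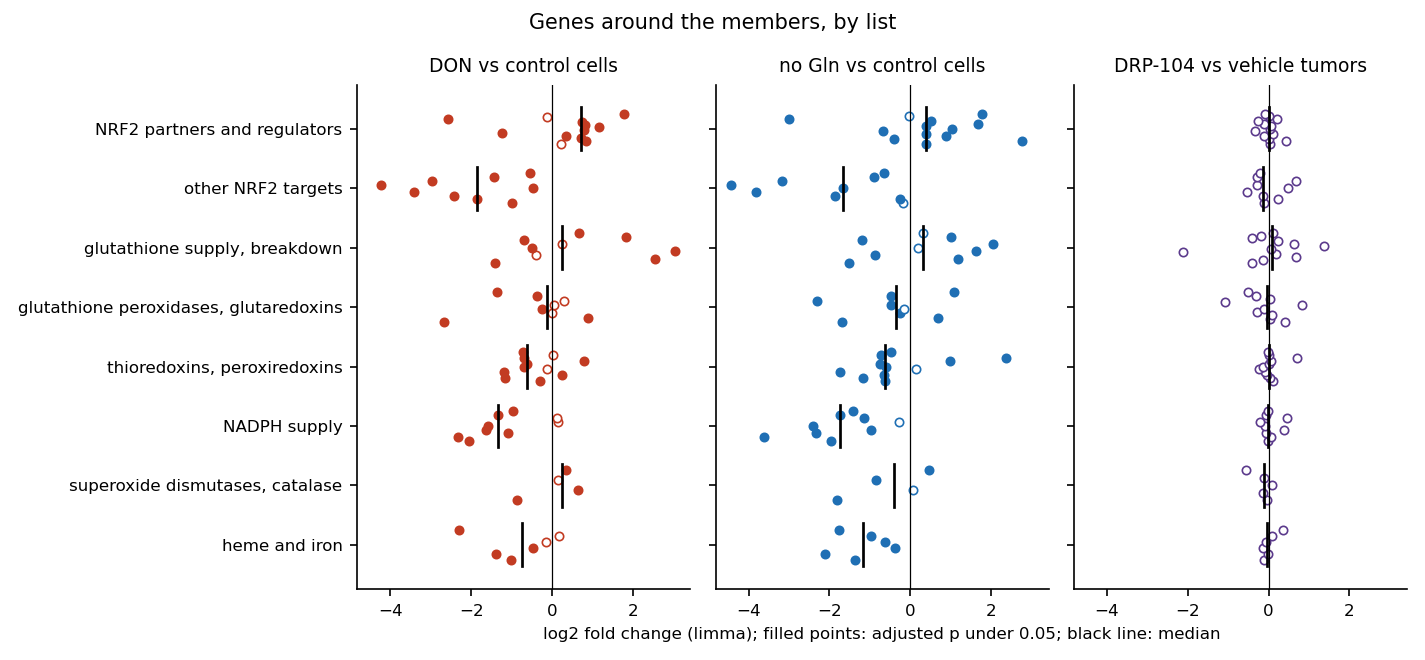
Log2 fold changes (limma) of the tested genes in 8 lists around the members, for DON cells, Gln-free cells and DRP-104 tumors, with filled points for genes called at an adjusted p under 0.05 and a black line at each list's median. NADPH supply and the other NRF2 targets lie mainly below 0 in both cultures, the NRF2 partners and regulators mainly above, and no tumor point is filled.

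Over all 8 lists, 54 of 68 genes tested were called after DON (17 higher and 37 lower) and 61 of 69 without Gln (18 higher and 43 lower). These are 79.4% and 88.4% of the genes tested, beside 68.1% and 69.4% of all genes, and the counts of single lists above stand against the same shares. In DRP-104 tumors 0 of 75 were called. As a description of pattern over the 9 culture libraries, which form 3 groups of 3, the gene most like G6pdx among 10422 with a mean of at least 100 was Fads1, a fatty acid desaturase (Pearson r = 0.999). The gene most like Gsr was H1f0, a linker histone (0.999), for Nfe2l2 it was Snx9 (0.998), for Txnrd1 Usp27x (0.997), for Hmox1 Nub1 (0.996) and for Gclm Rad21 (0.996). Gclc was most like Rundc3b (0.995), Gss most like Atp5h (0.994) and Srxn1 most like Dglucy (0.991), and Nqo1 was too low to be searched. With groups so far apart, such r values rest mainly on the group means.

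In tumors none of the 10 genes passed the test. With limma 0 of 10 were called, in a comparison in which 0 of 15454 genes were (0%), and 1 of the 10, Srxn1, and 775 of all genes had an unadjusted p under 0.05. edgeR called 0 and DESeq2 called 0 of the 10, and over all genes they called 0 and 60. In bulk tumors fewer cells of a type and less RNA per cell cannot be told apart. The fibroblast and endothelial markers, whose sums were lower in every DRP-104 tumor, were given above. Their part in the values that follow was not tested. Srxn1 had 334, 389.9 and 271 normalized counts in DRP-104 tumors against 483, 511 and 415 in vehicle tumors. It was the only member whose groups did not overlap, as 10.6% of all genes tested, and its log2 fold change was -0.51 (SE 0.20, unadjusted p = 0.0336, limma adjusted p = 0.916). Nfe2l2 had 2729, 2608 and 3588 against 3254, 2971 and 2647, with a 95% interval of the log2 fold change of -0.38 to 0.38.

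Single tumors set much of the spread. Gclc had 2399.6, 2417 and 5717 in DRP-104 tumors and 3961, 5584 and 2475 in vehicle tumors (log2 -0.24, 95% interval -1.15 to 0.67). DRP-104 tumor 3, the one high in T cell markers, was the highest of the DRP-104 tumors for Gclc and also for Nfe2l2, Gclm, Gss, Txnrd1, G6pdx and Nqo1. It was the lowest of them for Hmox1 (1171, 1081 and 617 against 707, 1603 and 987 in vehicle, log2 -0.17), Gsr and Srxn1. Without it the log2 fold change was -0.66 for Gclc, 0.12 for Hmox1 and -0.18 for Gss, and none passed the test. Vehicle tumor 2 was the highest vehicle tumor for Gclc, Gclm, Gsr, Txnrd1, Srxn1, G6pdx, Hmox1 and Nqo1. Gsr had 7108, 6516 and 6137 against 6675, 9730.4 and 8008 (log2 -0.29, 95% interval -0.69 to 0.11), and G6pdx had 967, 932 and 1295 against 978, 1811 and 1174 (log2 -0.28, 95% interval -0.84 to 0.29). Without vehicle tumor 2 these values were -0.15 and -0.025.

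The remaining 4 genes also overlapped between the tumor groups. Gclm had 1300.3, 1408 and 1584 in DRP-104 tumors against 1555, 1698 and 1407 (log2 -0.12), and Gss had 1298, 1186 and 2041 against 1491, 1436 and 1306 (log2 0.06). Txnrd1 had 2971, 2954 and 3411 against 3274, 4830.4 and 3214 (log2 -0.25, and -0.063 without vehicle tumor 2), and Nqo1 had 0, 5.77 and 37.3 against 6.26, 26.0 and 7.7 (log2 -0.91, 95% interval -3.98 to 2.17). The ratio of Gsr to Txnrd1 per gene length was 2.73 ± 0.388 in DRP-104 and 2.79 ± 0.343 in vehicle tumors, near the 2.89 of control cells. The ratio of Gclc to Gclm was 3.38 ± 1.495 and 3.58 ± 1.08, above every culture library. For both ratios the FPKM values given below differed from this. Over the lists, the highest log2 fold changes among genes with a mean of at least 100 were those of Gpx2, a glutathione peroxidase of epithelia (0.83), and Txnip (0.70), and the lowest those of Gpx3 (-1.08), and Sod3, the extracellular dismutase (-0.56), with no call.

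A second tumor table gives FPKM in 3 columns per group that are not matched to the tumors above. In it 0 of 14183 genes were called by limma. Groups did not overlap for 4 of the 9 members tested, with 3 lower and 1 higher, against 19.3% of all genes. Gsr was listed at 91.0, 109 and 118 FPKM with DRP-104 against 143, 160.2 and 158 with vehicle, all lower (log2 -0.54, SE 0.13, adjusted p = 0.451). Gclc was at 33.8, 32.3 and 29.4 against 53.4, 71.5 and 36.8 (log2 -0.69, SE 0.23, adjusted p = 0.611), and Nfe2l2 at 47.6, 63.8 and 63.0 against 70.6, 72.3 and 68.8 (log2 -0.29, SE 0.14, adjusted p = 0.629), both also all lower. Txnrd1 was all higher, at 57.6, 59.1 and 60.6 against 50.2, 57.2 and 51.8 (log2 0.15, SE 0.11, adjusted p = 0.634), whereas in the normalized counts its value was -0.25. With Gsr all lower and Txnrd1 all higher, their ratio was lower in every DRP-104 column than in any vehicle column. From the recovered reads it was near the same in both tumor groups. Srxn1 had groups that did not overlap in the normalized counts, as had 10.6% of all genes tested there. In FPKM it was at 8.55, 9.36 and 8.25 against 8.44, 9.82 and 8.06, with groups that overlapped. Nqo1 was under the filter of 0.5 FPKM, at 0.103, 0.42 and 0.417 against 0.531, 0.629 and 0.465.

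**Figure D4:**
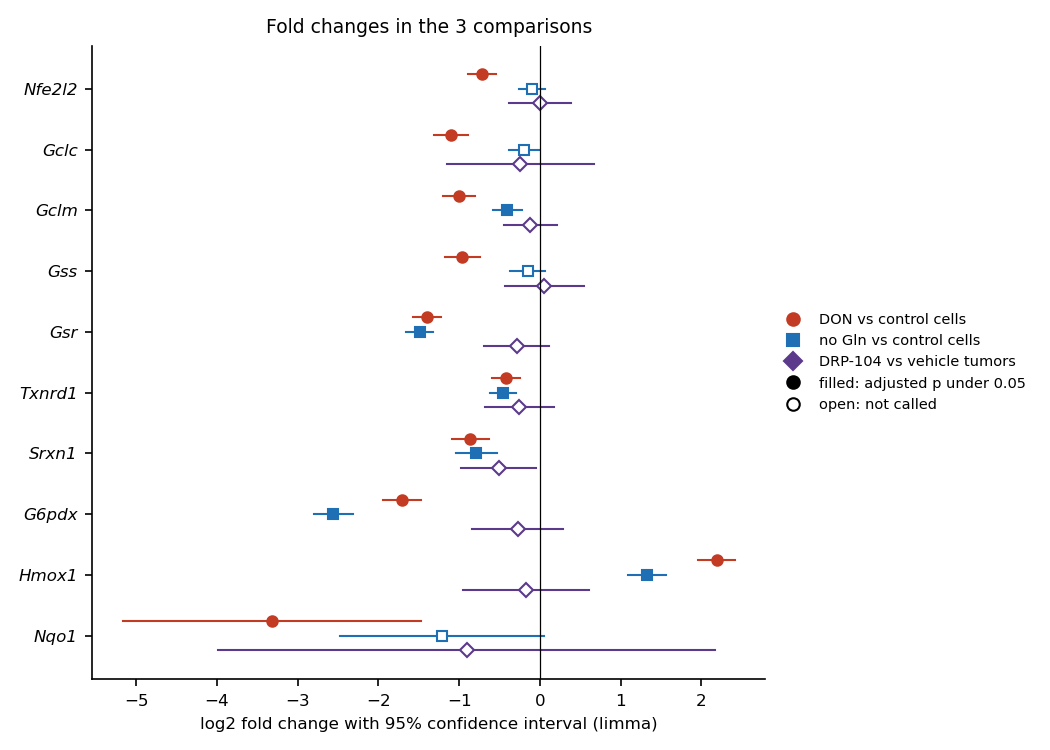
Log2 fold changes with 95% confidence intervals (limma) of the 10 genes after DON, without Gln and in DRP-104 tumors, with filled symbols for genes called at an adjusted p under 0.05. DON and Gln withdrawal lie together for Gsr, Txnrd1 and Srxn1 and apart for Nfe2l2, Gclc, Gclm, Gss, G6pdx and Hmox1, and each tumor interval but that of Srxn1 covers 0.

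DON and its prodrug were compared through the difference of their effects, each against its own controls, although the dose, the time and the system (cells or tumors) all differ and cannot be told apart in it. The DRP-104 effect differed from the DON effect for 6 of the 10 genes, where 33.1% of all genes tested did (19.1% higher and 14% lower). It was higher for Nfe2l2 (0.72 log2 units), Gclm (0.89), Gss (1.02), Gsr (1.11) and G6pdx (1.43), and lower for Hmox1 (-2.36), with limma adjusted p-values of 0.000410 to 0.00700. For these 6 the effect in cells passed the test and that in tumors did not, so a difference above 0 is no rise in tumors. All 10 members were called after DON, against 68.1% of all genes, so the 33.1% is not a like share for them. The call of Nfe2l2 was lost with quantile normalization (0.57, limma adjusted p = 0.0524). Without DRP-104 tumor 3 the count was again 6, with 5 higher and 1 lower. For Gclc the difference of 0.86 had a 95% interval of -0.08 to 1.80 and no call, and for Txnrd1 (0.17, -0.26 to 0.59) and Srxn1 (0.35, -0.11 to 0.81) the intervals also covered 0. Against Gln withdrawal the DRP-104 effect differed for 3 genes, where 36.7% of all genes tested did (18.6% higher and 18.1% lower). A share of 3 in 10 is near that background and no result about the members. They were Gsr (1.20), G6pdx (2.28) and Hmox1 (-1.4998).

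**Figure D5:**
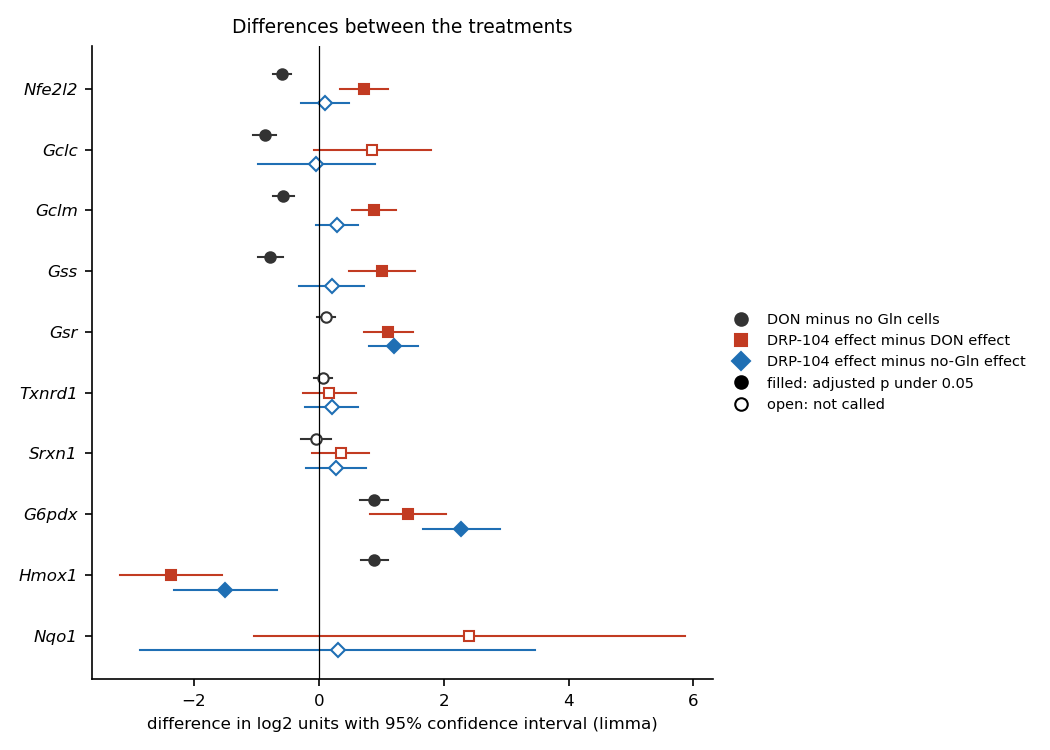
Differences in log2 units with 95% confidence intervals (limma) between DON and Gln-free cells and between the DRP-104 effect in tumors and each culture effect, with filled symbols for those called at an adjusted p under 0.05. Gclc, Gclm, Gss and Nfe2l2 lie to the left in the direct culture test, Hmox1 and G6pdx to the right, and Nqo1, which was too low for the direct test, has the widest intervals.

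The direct culture test gave 6 calls among the 9 genes tested, where 63.3% of all genes were called (31% higher and 32.3% lower). Groups did not overlap for 7 of the 9, against 71.7% of all genes. Both counts are near these shares and are no result about the members. After DON, Nfe2l2, Gclc, Gclm and Gss were lower and Hmox1 and G6pdx higher than without Gln. The regulator and the 3 synthesis enzymes shared a direction in this test, and Gsr, Txnrd1 and Srxn1 had intervals that covered 0.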

How the data were processed

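RNA of 15 samples was sequenced, and 5 groups of 3 were formed from the labels. Part of the line's genotype is not reported here. Library preparation, alignment (HISAT2) and DESeq2 were done by Novogene for the authors. The processing notes also name CASAVA, STAR 2.5 and GRCm39. The counting tool, annotation and use of strand are not given in the sources used here. The deposited signal in each comparison table is the gene count divided by 1 size factor per library, and dividing by the worth of 1 read returned whole reads for at least 99.9946% of values (tolerance 0.0051). The control columns of the 2 culture tables carry the headings that are also the titles of the vehicle tumors. They were assigned to control cells, as a group, because the tables are named for control cells. Col1a2, Dcn and Lum had no read in them and had reads in every vehicle tumor. Their reads were the same in both tables for 55291 of 55291 genes. The authors' FPKM table covers tumors only, with coordinates that match GRCm38.

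Limma 3.58.1 (R 4.3.3, eBayes with trend) tested log2(value + 1) where a gene's mean was at least 10, with Benjamini-Hochberg adjustment over all genes and a threshold of 0.05. Fold changes on this scale understate those of low genes. The direct test of DON against Gln-free cells used recovered reads after joint scaling of all 9 culture libraries, and tumor and culture effects by an interaction contrast. RPKM were computed from recovered reads and the gene lengths of the FPKM table. The alternatives comprised 2 count models on recovered reads (edgeR 4.0.16 and DESeq2 1.42.0), changed filters, pseudocounts, threshold and normalization, the FPKM table, and leaving out each library. The limma, edgeR and DESeq2 fits were run on simulated counts for DON against control cells and for DRP-104 against vehicle tumors. The other comparisons and alternatives were not simulated. Python 3.11 with pandas 2.3.3 and matplotlib 3.10.9 handled tables and plots. The members and lists were chosen with earlier results of these data known. Pathway genes named are the 2 largest called rises and falls of a list in each culture comparison and, in tumors, the 2 highest and 2 lowest values with a mean of at least 100. Slc7a11, Me1, Txnrd2, Mafk, Maff, Cul3, Gsk3b, Btrc and the values of rule-named genes in the other culture comparison were added after their values were seen. Intervals on reads cover counting error only, as reads without molecular identifiers are not independent molecules.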

Additional observations from a re-analysis of the deposited data

Results flagged for a closer look

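The effect of DRP-104 in tumors differed from that of DON in cells for 6 of the 10 genes by the interaction test (limma), where 33.1% of all genes tested differed. The differences were 0.72 log2 units for Nfe2l2 (adjusted p = 0.00700), 0.89 for Gclm (0.000970), 1.02 for Gss (0.00596), 1.11 for Gsr (0.000468), 1.43 for G6pdx (0.00173) and -2.36 for Hmox1 (0.000410). With quantile normalization Nfe2l2 lost its call (0.57, adjusted p = 0.0524). It differed from the effect of Gln withdrawal for 3 genes, where 36.7% of all genes differed, so this count is no result about the members, with 1.20 for Gsr (adjusted p = 0.000259), 2.28 for G6pdx (6.12e-05) and -1.4998 for Hmox1 (0.00797). In each of these the effect in cells passed the test and that in tumors did not. All 10 genes were called after DON, so the 33.1% of all genes is not a like share for them. The fibroblast and endothelial markers, whose sums were lower in every DRP-104 tumor, stand beside these values, and their part was not tested.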

How the results depend on the processing

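The number of members called stayed within 1.5 times its value under every alternative run. It was 9 to 10 for DON (9 where Nqo1 fell under the filter), 6 to 8 without Gln, 0 for DRP-104, 6 to 8 for DON against Gln-free cells, 5 to 7 for DRP-104 against DON and 3 to 4 for DRP-104 against Gln withdrawal. All 137 alternative values of single members after DON kept direction and call. Without Gln 6 values gained a call, for Gclc as given above, for Gss without 1 control library and for Nqo1 without 1 Gln-free library (-1.63, limma adjusted p = 0.0366) or 1 control library (-1.58, 0.0422). Nfe2l2 lost its call in DRP-104 against DON with quantile normalization (0.57, adjusted p = 0.0524), Nqo1 gained 1 there without DRP-104 tumor 1 (3.75, 0.0415), and Txnrd1 gained 1 in DRP-104 against Gln withdrawal without vehicle tumor 2 (0.40, 0.0435). For DON, the median over all genes was 0.02 and became 0.13 once libraries were quantile normalized, and the higher genes made up 49.0% and 56.0% of calls.

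Values that changed sign were all without a call. In DRP-104 tumors Nfe2l2 was 0.012 with edgeR, 0.015 with DESeq2 and 0.052 with quantile normalization, and Nqo1 0.12 with edgeR and 0.11 with DESeq2. In the FPKM table Hmox1 was 0.43, Gclm 0.033, Gss -0.26 and Txnrd1 0.15. Leaving out each tumor gave -0.14 to 0.087 for Nfe2l2, -1.26 to 0.43 for Nqo1, -0.45 to 0.14 for Hmox1, -0.66 to 0.037 for Gclc and -0.18 to 0.21 for Gss. In DON against Gln-free cells Srxn1 ran from -0.15 to 0.038 over left-out libraries. In DRP-104 against Gln withdrawal Gclc was 0.041 with edgeR, 0.023 with DESeq2 and 0.053 with quantile normalization, and over left-out libraries Gclc ran from -0.46 to 0.24, Nfe2l2 from -0.042 to 0.19, Nqo1 from -0.99 to 1.64 and Gss from -0.029 to 0.36. The cause was not tested.

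No paired analysis was possible for comparisons with control cells because their columns carry no replicate number of the labels. With the replicate number as a block, 0 members were called in DRP-104 tumors and 6 in DON against Gln-free cells. Deviations of same-numbered samples had correlations of -0.42, 0.05 and -0.45 in tumors and -0.05, -0.01 and 0.18 in cells, so the numbers do not pair the samples. Even numbers made up 69.6% to 72.7% of the values between 1 and 20 reads in culture libraries (41.9% to 46.5% in tumors). The cause was not tested, so a read may not be the same unit in cells and tumors. The depths, the count models on recovered reads and the counting error at 0 carry this limit. The spread of tumors limits what 3 libraries against 3 can show.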
